A study of Mus musculus with 30 samples.

Results

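The 1000 autosomal ATAC-seq peaks whose accessibility differed most between mice taken straight from the home cage are described here. They were chosen from 148928 autosomal peaks with a mean count of at least 50 per library, out of 257149 peaks in the whole count table. For each peak, the CPM (the usual depth-scaled count, here relative to all counts in peaks of a library) was put on the scale log2(CPM + 0.5), the mean of each batch was subtracted, and the 1000 peaks with the largest standard deviation (SD) over 15 home-cage libraries were kept. The home-cage spread therefore chose the peaks, and it is given as a description with no test.

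The study profiled open chromatin in the ventral hippocampus of 30 mice, 1 library of nuclei per animal, in 4 batches that each held every group. Tests therefore measure the spread between animals. Mice had been restrained in a tube on 10 days in a row (chronic) or gently handled instead, and after a day of single housing were collected without further stress (0 min, home cage) or 45 min after the start of a renewed restraint. At 0 min there were 4 females and 4 males with handling and as many with chronic restraint. At 45 min there were 3 females and 4 males with handling, and 4 females and 3 males with chronic restraint. No genotype or agent was named for any group, and strain and age were not given in the sources used here. The rule left out animal 45, a female with handling at 0 min, so that 7 females and 8 males chose the peaks. In its library 61.5% of the 1000 peaks, and 74.8% of all eligible peaks, lay outside the range of the other home-cage libraries of its batch (animals 20, 24 and 46). The range of so few libraries leaves many values of any further library outside it. These animals also helped choose the 1000 peaks. Total counts ran from 26104576 to 55294838 per library.

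ATAC-seq uses a transposase that cuts and tags DNA where nucleosomes leave it exposed, so a peak marks a promoter, an enhancer or another accessible element. Promoters of widely expressed genes are open in most cells, whereas elements far from genes tend to be open in particular cell types or states. In a tissue sample, a lower count in a peak can come from fewer cells of a type or from less accessibility per cell, and these cannot be told apart. Peaks are named here by the nearest protein-coding gene, which need not be the gene that a peak acts on.

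The variable peaks lay away from gene ends. Only 29 of them (2.9%) lay within 1 kb of either end of a protein-coding gene, against 14.2% of the eligible peaks. Another 512 (51.2%, against 59.5%) lay farther inside genes, and 459 (45.9%, against 26.3%) lay between genes. The distance to the nearest gene exceeded 100 kb for 171 peaks (17.1%), against 4.63% of the eligible peaks. Among the peaks between genes, the median distance was 49921 bp, against 18293 bp. The median width of the variable peaks was 552 bp, against 889 bp for the eligible peaks. The eligible peaks also had more counts, with a median of the mean count of 100.567 against 62.25. Over all 257149 peaks, where that median was 58.9667, the median width was 561 bp, close to that of the variable peaks. Width at matched counts was not tested. No peak overlapped a microRNA of the RefSeq table.

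Genes were rarely hit more than once. The 1000 peaks were nearest to 909 genes, of which 833 had a single variable peak. Rbfox1, a splicing regulator of neurons, and Celf2, another RNA-binding splicing factor, had 5 each. A further 9 genes had 3, among them Grin2a, which encodes an NMDA receptor subunit, the synaptic phosphatase gene Ptprd and the adhesion gene Cdh13. Variable peaks were no more frequent near each other than elsewhere. Of the eligible peaks within 100 kb of a variable peak, 0.518% were themselves variable peaks, against 0.671% of all eligible peaks. Among stretches of 1 Mb with at least 3 variable peaks, the densest was on chromosome 4 from 146 to 147 Mb, with 3 of 6 eligible peaks. The next was on chromosome 12 from 66 to 67 Mb, with 3 of 8.

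Only 13 of the 1000 peaks (1.3%) overlapped a promoter window of the RefSeq table (250 bases before to 50 after a gene's start, build GRCm38.p6), against 8.38% of the eligible peaks. Of these, 7 lay at an annotated start of a named coding gene, and the others at starts of predicted genes. The sequences of 4 are shown because they overlap annotated starts, unlike most of the set, and they differ in kind. By the measure above, the Six3 peak lay inside its gene, over 1 kb from either end, so its start is an internal one. Each line gives the 250 bases upstream of the start, 5′ to 3′ on the gene's strand, and capitals mark the bases under the variable peak, which covers the whole Hmox2 stretch.
Six3, chr17:85620584-85620833, plus strand: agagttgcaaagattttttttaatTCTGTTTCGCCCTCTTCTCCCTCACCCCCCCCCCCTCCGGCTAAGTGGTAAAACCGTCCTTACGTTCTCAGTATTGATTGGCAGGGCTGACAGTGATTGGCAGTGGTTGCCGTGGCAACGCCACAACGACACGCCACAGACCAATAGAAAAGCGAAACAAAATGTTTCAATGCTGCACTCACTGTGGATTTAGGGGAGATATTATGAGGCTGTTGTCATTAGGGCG
Hmox2, chr16:4741363-4741612, plus strand: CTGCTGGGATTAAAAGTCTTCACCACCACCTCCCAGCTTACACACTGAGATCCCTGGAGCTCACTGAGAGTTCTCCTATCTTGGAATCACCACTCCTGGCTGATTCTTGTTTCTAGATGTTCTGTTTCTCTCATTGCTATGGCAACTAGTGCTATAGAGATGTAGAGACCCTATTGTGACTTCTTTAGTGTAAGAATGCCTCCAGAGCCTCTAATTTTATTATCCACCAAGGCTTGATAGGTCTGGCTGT
Cgnl1, chr9:71771603-71771852, minus strand: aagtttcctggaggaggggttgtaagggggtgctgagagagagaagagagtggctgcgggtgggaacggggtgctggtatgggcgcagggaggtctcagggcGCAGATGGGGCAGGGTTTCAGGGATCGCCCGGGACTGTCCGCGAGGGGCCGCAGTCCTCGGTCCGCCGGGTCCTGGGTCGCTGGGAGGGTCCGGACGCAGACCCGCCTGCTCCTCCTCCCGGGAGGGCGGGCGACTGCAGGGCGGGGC
Mag, chr7:30914923-30915172, minus strand: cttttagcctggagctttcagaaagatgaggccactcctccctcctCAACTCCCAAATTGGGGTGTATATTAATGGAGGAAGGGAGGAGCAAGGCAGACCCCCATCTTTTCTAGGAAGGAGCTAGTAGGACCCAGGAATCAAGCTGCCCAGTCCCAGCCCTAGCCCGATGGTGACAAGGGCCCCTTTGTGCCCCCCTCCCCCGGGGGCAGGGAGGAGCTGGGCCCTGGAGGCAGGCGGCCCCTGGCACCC
The window of Six3, a homeobox factor of the forebrain, held the CCAAT box (CCAAT, either strand) 3 times, a motif found in 33.9% of the 32851 windows searched. The window of Cgnl1, a tight junction protein, held the GC box (GGGCGG, either strand) 2 times, against 32.7% of windows with any, and 20 CpG dinucleotides. The window of Hmox2, the constitutive heme oxygenase, held no CpG and neither motif. The window of 1 of 2 annotated starts of Mag, a myelin glycoprotein of oligodendrocytes, held 3 CpG and 1 CCAAT box. At these 4 peaks the home-cage SD was 0.29, 0.29, 0.29 and 0.28 in the order shown, and at 45 min it was 0.15, 0.16, 0.22 and 0.20. The other coding genes with such a peak were Synpo2l, Cntrl and Tiam2.

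Most variable peaks were shallow. The mean count lay between 50 and 60 for 43.3% of them, against 15.8% of the eligible peaks, and under 120 for 94.9%, against 58.4%. Only 9 had a mean count of at least 200. The smallest SD in the set was 0.268702 and the largest outside it was 0.268694, so peaks just inside and just outside hardly differed in it. Counting error alone, computed from the counts, came to 19.7% of the home-cage variance of the median variable peak, against 47.3% for the median eligible peak. The choice of peaks by a large home-cage SD itself lowers this share, so it is given as a description only.

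Beyond the minimum of the mean count, the 14 libraries at 45 min were not used to choose the peaks, so the spread was measured there again. The median SD of the set was 0.28 in the home cage and 0.18 at 45 min, against 0.15 at both times for the eligible peaks. At 45 min 766 of the 1000 exceeded the median SD of the eligible peaks. In most ranges of depth the excess was small. For mean counts of 50 to 60, the median SD at 45 min was 0.18 for the variable peaks and 0.17 for the eligible peaks, and for 120 to 200 it was 0.16 against 0.14. The 3 variable peaks with a mean count over 500 were the exception, with a median of 0.19 against 0.08. Counting error accounted for 47.3% of the variance of the median variable peak at 45 min, close to the 45.4% of the eligible peaks. Being among the 1000 widest peaks at 45 min was again true of 32 members (3.2%), against 0.671% of the eligible peaks. These 2 shares were not matched for depth. Shallow peaks, of which the set held more, had a larger SD at 45 min among the eligible peaks too.

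**Figure D1:**
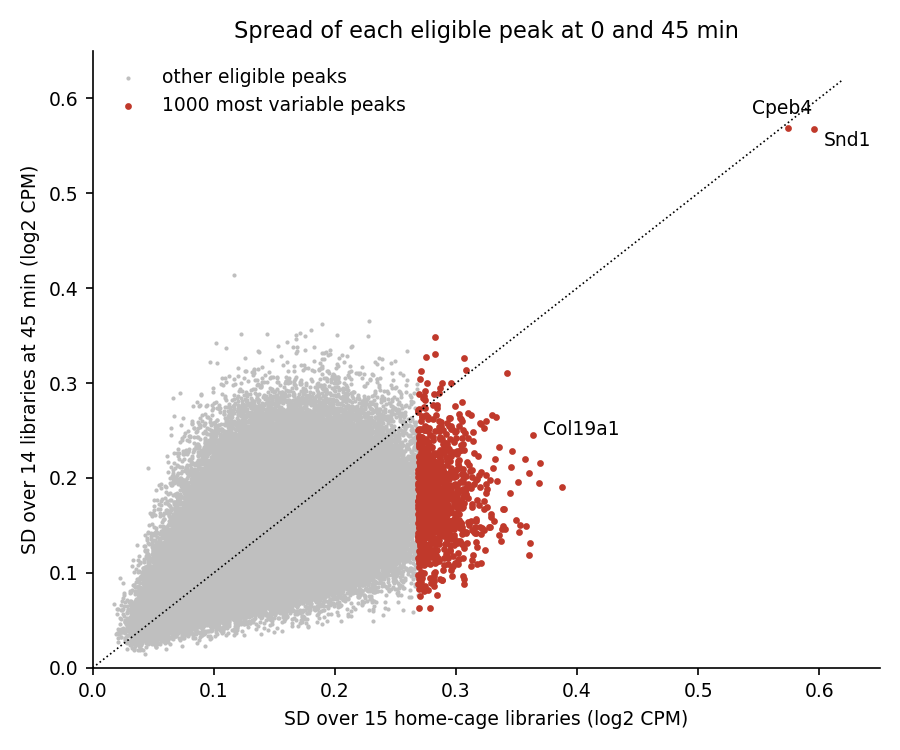
SD of log2(CPM + 0.5) after subtracting batch means, over 15 home-cage libraries (horizontal axis, used for the choice) and 14 libraries at 45 min (vertical axis), for 1000 variable peaks (red) and the other eligible peaks (grey), with a dotted line of equality. The Snd1 and Cpeb4 peaks stand apart near 0.57 to 0.60 on both axes, while most of the red points lie below the line.

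**Figure D2:**
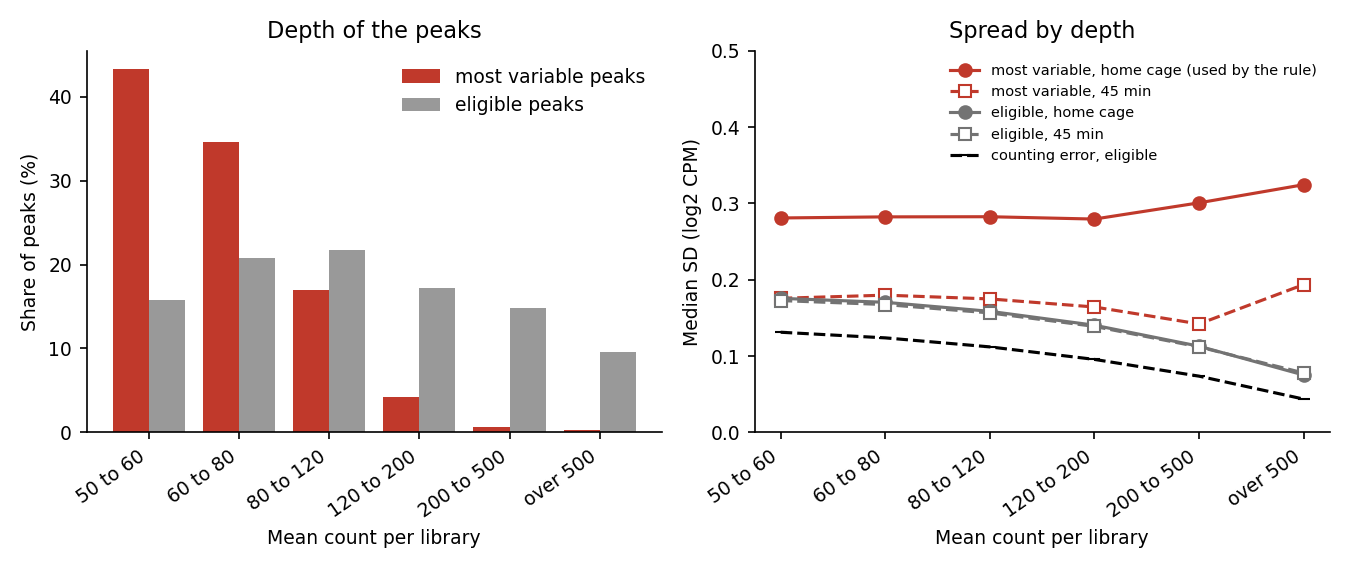
Left, share of the variable (red) and the eligible peaks (grey) in 6 ranges of mean count per library. Right, median SD in each range, in the home cage (filled) and at 45 min (open), with the SD expected from counting error (black): at 45 min the variable peaks lie close to the eligible peaks in the shallow ranges.

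A pair of peaks stood apart from all others. Only the peaks inside Snd1 and Cpeb4 had an SD over 0.5, in the home cage and again at 45 min, among all 148928 eligible peaks. The next largest home-cage SD was 0.39.

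The Cpeb4 peak (chr11:31922650-31923128, 479 bp, mean count 75.9) separated the sexes completely. Cpeb4 encodes a protein that binds polyadenylation elements of messenger RNAs, and the peak lay inside the gene, 12507 bp from the nearer end. In the home cage the CPM ran from 0.83 through a median of 0.99 to 1.69 in 7 females, and from 2.25 through 3.13 to 3.32 in 8 males. At 45 min it ran from 0.87 through 1.02 to 1.18 in 7 females, and from 2.10 through 2.74 to 3.22 in 7 males. Animal 45, a female, had 0.78. Every male therefore lay above every female, in both sets of libraries. This was the only 1 of 148928 eligible autosomal peaks (0.000671%) whose 15 females and 15 males did not overlap. In the test at 45 min, which used no home-cage library, the difference of females minus males was -1.35 ± 0.13 (log2, SE; edgeR quasi-likelihood test, adjusted p = 5.23e-13), against 0.0268% of all tested peaks called. It was the only called peak of the set, and it kept its call and direction under each of the 11 alternatives run, from -1.45 to -1.22. The 10 other eligible peaks of Cpeb4 had a median home-cage SD of 0.15 and none was in the set.

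Across the whole table, 4 peaks followed the Cpeb4 peak with a correlation of at least 0.85 in both the 15 home-cage and the 14 later libraries, and all 4 lay on the Y chromosome. They lay in or next to Eif2s3y (a Y-linked translation factor gene), in Uty (a Y-linked demethylase relative) and at chrY:258982-259465. At the last, r was 0.97 and 0.94, and the CPM ran from 4.77 to 11.05 in males and from 0 to 1.08 in females. These libraries share their division by sex. Whether counts of the Cpeb4 peak include fragments from a Y-linked copy was not tested.

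The Snd1 peak (chr6:28929166-28929663, mean count 67.2) varied widely within both sexes and all 4 groups. Snd1 encodes an RNA-binding nuclease-domain protein, and the peak lay 5499 bp inside the nearer end of the gene. The CPM ran from 0.56 through a median of 0.97 to 2.49 in handled mice at 0 min, and from 0.81 through 2.82 to 3.57 in chronic mice at 0 min. At 45 min it ran from 0.68 through 0.94 to 3.05 in handled mice, and from 0.94 through 1.36 to 4.46 in chronic mice. All 4 groups overlapped, and each held both low and high animals. At 0 min the chronic median lay above the highest handled value, a description of libraries that chose the peak, and history was tested at 45 min only. At 45 min the difference of chronic minus handled was 0.39 ± 0.51 and that of females minus males 0.17 ± 0.51 (log2, SE), with adjusted p of 1.00 in both tests (edgeR). Its SE was several times that of the Cpeb4 peak at a like depth.

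A second, smaller peak inside Snd1 (chr6:28928101-28928285, mean count 43.0, under the minimum of the set), 880 bp away, followed it with r = 0.90 in the home cage and 0.90 at 45 min. It was the only peak in the table that reached 0.85 in both. The 11 libraries with the highest CPM were the same 11 for both peaks. At the larger peak these 11 lay at 2.13 CPM and above, while the other 19 lay at 1.82 and below. The 11 comprised 5 females and 6 males, came from all 4 batches, and counted 2, 5, 2 and 2 mice from the handled 0 min, chronic 0 min, handled 45 min and chronic 45 min groups. The neighbouring peak and this count of libraries were chosen after the values were seen. The 118 other eligible peaks of Snd1 had a median home-cage SD of 0.15 and a largest of 0.27.

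**Figure D3:**
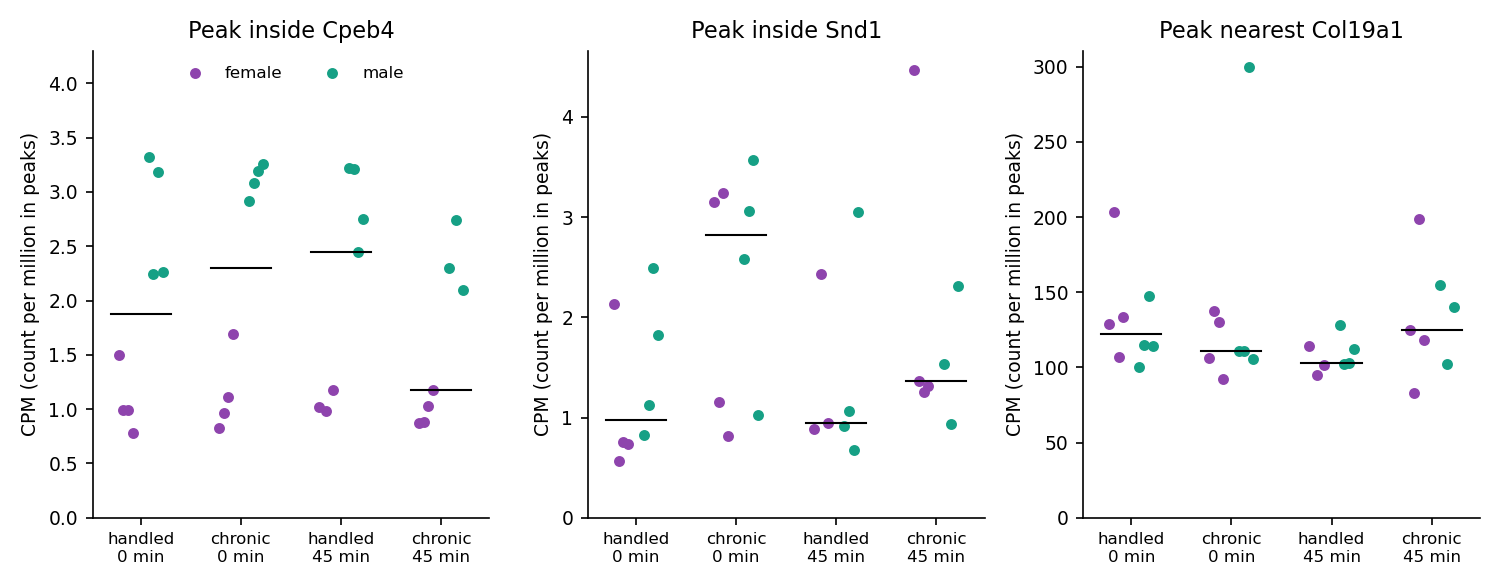
CPM of the Cpeb4, Snd1 and Col19a1-nearest peaks in each library, by group (horizontal axis), for females (purple) and males (green), with the group median as a line. Males lie above females at Cpeb4 in every group, both sexes spread widely at Snd1, and single libraries stand high at the Col19a1-nearest peak.

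Of the 9 deep peaks, 3 had mean counts over 500. The deepest of the whole set (chr1:24612851-24613093, mean count 4878) lay 24929 bp from Col19a1, a collagen gene. This stretch of chromosome 1 is known as a long nuclear copy of mitochondrial DNA, so its counts and those of mitochondrial fragments cannot be told apart here. The CPM ran from 100.4 through 122 to 203 in handled and from 92.1 through 111 to 299.8 in chronic mice at 0 min, and from 94.9 through 103 to 128 in handled and from 83.3 through 125 to 198 in chronic mice at 45 min. Most libraries lay close together, and the high values belonged to animal 63 at 299.8, animal 40 at 203 and animal 56 at 198. Animals 63 and 56 had 2 of the 3 smallest total counts, 26340697 and 26283668, and animal 40 had 37225103.

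The other 2, one nearest Ajap1 on chromosome 4 (chr4:153152997-153153499, mean count 755, 219722 bp from the gene) and one nearest Adgrl2 on chromosome 3 (chr3:149052431-149053050, mean count 820, 63335 bp from the gene), varied together. Ajap1 encodes a membrane protein of adherens junctions and Adgrl2 the adhesion receptor latrophilin 2. The Ajap1-nearest peak ran from 9.84 through 21.0 to 30.6 CPM in handled and from 8.02 through 17.0 to 23.02 in chronic mice at 0 min, and from 14.9 through 19.1 to 26.98 in handled and from 14.5 through 20.1 to 22.8 in chronic mice at 45 min. The Adgrl2-nearest peak ran from 11.3 through 22.7 to 33.4 and from 10.55 through 19.1 to 28.2 CPM at 0 min, and from 17.2 through 20.8 to 27.8 and from 16.7 through 19.5 to 25.4 at 45 min, in the same order of groups. The groups overlapped at both peaks. Their correlation was 0.95 over the 15 home-cage libraries and 0.92 over the 14 libraries at 45 min, the highest at 45 min among the 20 pairs of variable peaks that reached 0.8 in both. Without animal 46 the home-cage value was 0.93. The 2 lowest libraries at both peaks were animals 46 and 45, females of batch 4 with total counts of 47979697 and 46120049. The part of depth at these peaks was not tested.

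In the whole table, 12 peaks followed the Ajap1-nearest peak with r of at least 0.85 in both sets of libraries, and most lay together on the Y chromosome. Besides the Adgrl2-nearest peak, there was 1 inside Ppp1r9a on chromosome 6 (r = 0.92 and 0.93), which encodes the actin-binding synaptic protein neurabin. Another 2 lay on the X chromosome, 1 of them (chrX:170003794-170005966) 4560 bp from Erdr1. The remaining 8 lay between chrY:90736788 and 90813253, among 23 peaks of the table at that end of the Y chromosome. The end of the Y assembly holds the pseudoautosomal region, which X and Y share and which is rich in repeats, and females also had counts there. At the largest of these, chrY:90810535-90813253, the CPM ran from 1.94 through 38.3 to 65.7 in females and from 18.6 through 38.0 to 73.7 in males. Animal 46 had 1.94 and animal 45 had 26.4, against 65.7 in animal 57 and 73.7 in animal 49, which were also the highest at the Ajap1-nearest and Adgrl2-nearest peaks. The count rested in part on animal 46. Without it 7 of the 12 still reached 0.85 in the home cage, 4 of them at the end of the Y chromosome, and the largest Y peak had r = 0.86. These peaks were picked after their values were seen, and whether they share sequence was not tested.

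**Figure D4:**
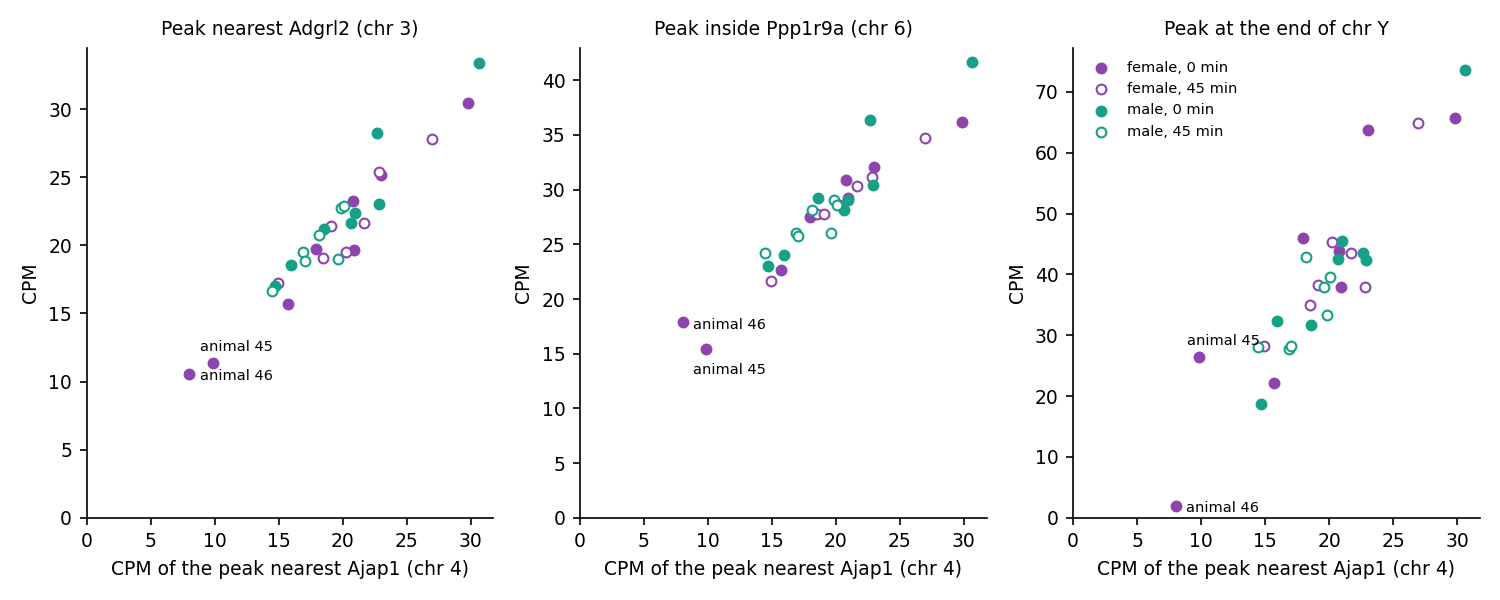
CPM of the peak nearest Adgrl2, the peak inside Ppp1r9a and the largest peak at the end of the Y chromosome (vertical axes) against CPM of the peak nearest Ajap1 (horizontal axis), 1 point per library, for females (purple) and males (green) at 0 min (filled) and 45 min (open). The points rise together in all 3 panels, and animals 45 and 46 lie at the low end of the Ajap1-nearest peak.

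Beyond Snd1 and Cpeb4, the 25 most variable peaks (1 per gene) held a wide mixture of genes. Of the 25, 11 lay inside genes, 13 between genes and 1 at a gene end. The largest SD among the other 23 was 0.39, at a peak inside Ptprd, a receptor phosphatase that organises synapses. There the CPM ran from 0.64 through 0.99 to 1.19 in females and from 0.68 through 1.63 to 2.30 in males of the home cage, and from 1.15 through 1.60 to 2.12 and from 1.02 through 1.53 to 2.16 at 45 min. The sexes overlapped at both times, and the home-cage males had the widest range. Its SD at 45 min was 0.19. Taf4b (a subunit of the general transcription factor TFIID), Nrep (a neuronal regeneration protein) and Smyd2 (a lysine methyltransferase) followed with 0.37, 0.37 and 0.36, and with 0.22, 0.20 and 0.12 at 45 min. Others were Lsamp (a limbic adhesion molecule), Adcy8 (a calcium-stimulated adenylyl cyclase), Ppp3ca (the catalytic subunit of calcineurin), Rbfox1, Cdh5 (the cadherin of endothelium) and Edn3 (an endothelin). Besides the Col19a1-nearest peak described above, the remaining names were Tmem182, Fndc1, Rnf144a (a ubiquitin ligase), Heatr4, Nbas (a Golgi transport protein), Sgcz (a sarcoglycan), Sh3rf3, Klf11 (a Krüppel-like factor, 64 bp from its gene end), Enox1, Rpl10l (a ribosomal protein relative), Gm4788 and Nifk (a nucleolar protein). Of the 25, 3 were again among the 1000 widest at 45 min, and they were Cpeb4, Snd1 and Ppp3ca.

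Apart from Cpeb4 and Snd1, 30 peaks were wide at both times. None lay at a gene end, and of all 32, 15 lay inside and 17 between genes. The widest of them at 45 min were inside Slc22a22, an organic anion transporter (SD 0.28 in the home cage and 0.35 at 45 min), inside Hcn4, a pacemaker channel (0.28 and 0.33), and nearest Mgmt, a DNA repair methyltransferase (0.28 and 0.33). The most deeply counted was inside Nrros, a regulator of TGF-beta in microglia (chr16:32149176-32149665, mean count 181, SD 0.30 and 0.30). Its CPM ran from 2.88 through 3.64 to 6.72 in handled and from 3.95 through 4.97 to 5.90 in chronic mice at 0 min, and from 3.15 through 3.52 to 5.67 and from 3.49 through 4.96 to 6.45 at 45 min, with overlap of the histories at both times. The peak near Ppp3ca (chr3:137091142-137091551, 153415 bp away, SD 0.34 and 0.31) ran from 0.70 to 1.97 CPM in handled and from 0.87 to 1.96 in chronic mice at 0 min, and from 1.00 to 2.41 and from 0.84 to 1.98 at 45 min. Others of the 32 lay in or nearest Astn2, an astrotactin of neuronal migration, Shisa9, an AMPA receptor auxiliary protein, Lrrc4c, a netrin-G ligand, Id2, an inhibitor of helix-loop-helix factors, Usp24, Pdzd2, and the zinc finger genes Zfp992 and Zfp978 of chromosome 4.

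The variable peaks did not move as 1 body. Over all pairs the median correlation was 0.03 in 15 home-cage libraries and 0.01 in 14 libraries at 45 min. Grouping by correlation in the home cage gave 9 groups of at least 20 peaks, which held 325 peaks, and 675 belonged to none. Group 1, of 118 peaks on 19 chromosomes, was led by peaks near Pdzd2, Smyd2, Adamts8, Ext1 (a heparan sulfate synthase), Rab3b (a synaptic vesicle GTPase) and Bcl11b (a neuronal transcription factor), and 68 of its peaks lay between genes, 50 inside genes and 0 at gene ends. Group 2 (41 peaks) was led by Klrg1, Lrrn1, Unc5c (a netrin receptor), Wasf3, Pla2g4e and Spidr, group 3 (29) by Kcnn2 (a calcium-activated potassium channel), Slain1, Atp9b, Gopc, Cdh13 and Etaa1, and group 4 (25) by Lrriq3, Col22a1, Pdcd6ip, Mrps23, 1700129C05Rik and Edn3. Group 5 (24) was led by Abtb2, Wt1, Crybg1, Bin1, Cds1 and Cd2, group 6 (24) by Slc25a13, Kcnh8, Enpp1, Btbd3, Serpina3c and Npy5r (a neuropeptide Y receptor), and group 7 (22) by Sgk1 (a kinase induced by glucocorticoids), Diaph3, Zfp609, Lrrc4c, Rbp7 and Gas6. Group 8 (22) was led by Csnk1g1, Gm6650, Bcl11b, Nlk, A830018L16Rik and Usp7, and group 9 (20) by Cited2, Dynap, Serpinb3a, Dock2, Phf3 and Pglyrp4.

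Within groups, the correlation that formed them only partly returned. The median r between members was 0.60 to 0.66 in the home cage, where the grouping fixed it. At 45 min it was 0.25, 0.25 and 0.26 in groups 1, 3 and 4, and 0.05 to 0.13 in the other 6. The range of the group mean shrank as well. In group 1 the mean deviation from the batch mean ran from -0.40 (animal 63) to 0.39 (animal 3) in the home cage, and from -0.18 (animal 56) to 0.14 (animal 66) at 45 min. Over the 9 groups, the distance between the lowest and the highest library was 0.57 to 0.94 in the home cage and 0.18 to 0.37 at 45 min. Of 1813 pairs with r of at least 0.8 in the home cage, 20 (1.10%) reached it at 45 min, against 0.289% of all 499500 pairs. After the Ajap1 and Adgrl2 pair came peaks nearest Adamts5 and Cntnap5b (0.82 and 0.90), Gfra2 and Mal (0.83 and 0.88) and Barx2 and Ncam2 (0.91 and 0.88). No partners among these lay on the same chromosome.

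Shallow libraries held many of the extremes of these patterns. The 3 shallowest home-cage libraries, of animals 63, 8 and 7 (26340697, 28659410 and 30179722 counts), held the largest deviation in 426 of the 1000 peaks (42.6%), against 28.3% of the eligible peaks, and in 309 of these 426 the deviation was downward. In 7 of the 9 groups the lowest home-cage library was 1 of these 3, and in 5 the highest was animal 3 (47351935 counts). At 45 min the lowest was animal 56 (26283668 counts) in 5 groups and the highest animal 66 (48069907 counts) in 4. In groups 5 and 8, libraries among the 3 shallowest held both home-cage extremes. Group 5 ran from -0.63 (animal 7) to 0.28 (animal 8), and group 8 from -0.60 (animal 8) to 0.32 (animal 7). At 45 min animal 18, the shallowest library of all (26104576 counts), stayed between -0.05 and 0.05 in all 9 groups, which its library did not help form. The part of depth in the groups was not tested. Chosen again without animals 63, 8 and 7, the rule kept 439 of the 1000 peaks.

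**Figure D5:**
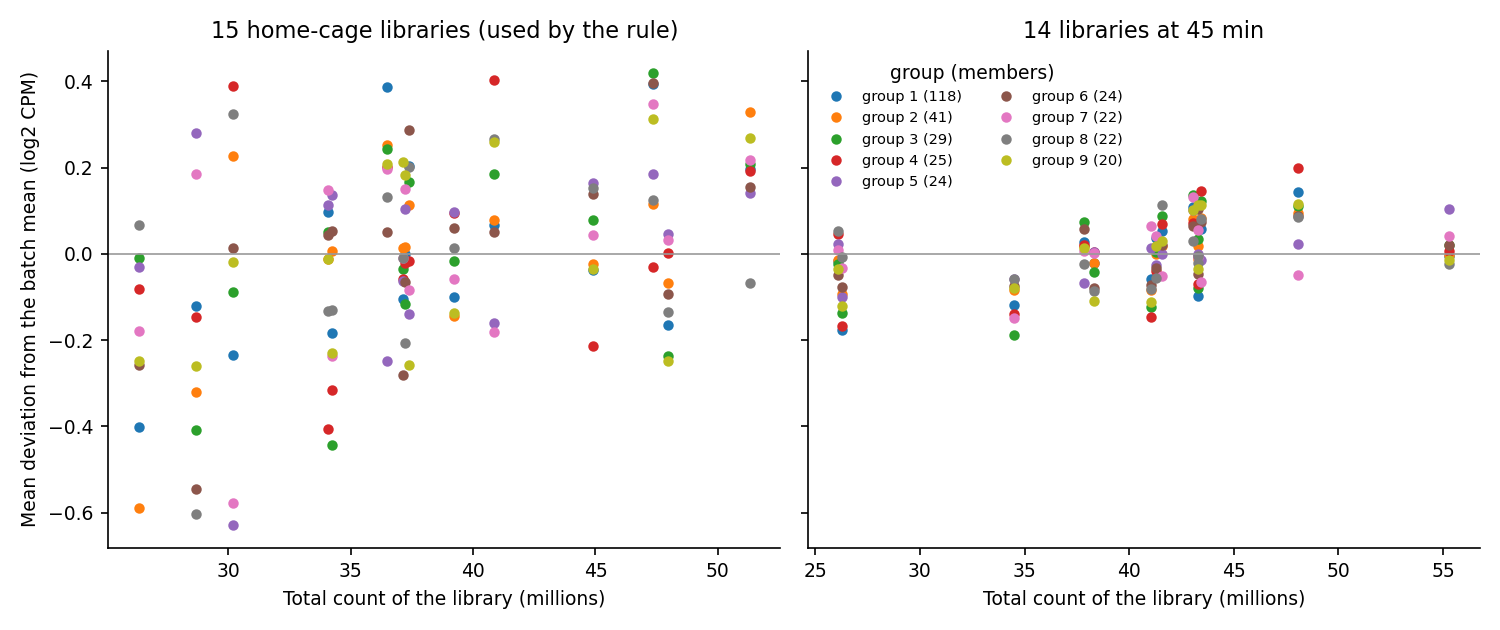
Mean deviation from the batch mean of the 9 co-varying groups (colours, with member numbers) in each library, against the library's total count, for 15 home-cage libraries (left, used to form the groups) and 14 libraries at 45 min (right). Deviations reach -0.63 to 0.42 on the left and stay between -0.19 and 0.20 on the right.

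The history of restraint was compared at 45 min, in 14 libraries with sex and batch in the model. No variable peak, and none of all 257143 tested peaks (0.0%), passed an adjusted p of 0.05 in the edgeR quasi-likelihood test. At an unadjusted p under 0.05 there were 71 of the 1000 (7.1%), against 4.32% of all peaks, and DESeq2 called 0 as well, with 36 (3.6%, against 2.67% of all peaks) at an unadjusted p under 0.05. The 3 smallest p belonged to Zfp978 (-0.50 ± 0.13, log2 of chronic over handled, SE), Shisa9 (-0.55 ± 0.15) and Astn2 (-0.49 ± 0.13), all with an adjusted p of 1.00. At the Astn2 peak the CPM ran from 1.57 through 2.47 to 3.65 in handled and from 1.71 through 1.79 to 2.79 in chronic mice at 45 min, and the groups overlapped. The histories did not overlap at 1 variable peak (0.1%), against 0.0557% of the eligible peaks, inside Mboat2, a lysophospholipid acyltransferase. There the handled mice at 45 min lay between 0.93 and 1.43 CPM and the chronic mice between 1.43 and 1.71, while at 0 min the histories overlapped, at 1.02 to 2.06 and 0.80 to 2.15. Its highest handled value, 1.42897, lay just under its lowest chronic value, 1.43193.

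For sex at 45 min the Cpeb4 peak was the only call, and 41 peaks (4.1%) had an unadjusted p under 0.05, against 3.92% of all peaks. In the home cage 2 variable peaks did not overlap between the sexes, against 0.0349% of the eligible peaks, which the choice itself bears on. Besides Cpeb4 this was a peak inside Ddx31, an RNA helicase gene, with 1.43 to 1.94 CPM in females and 0.52 to 1.42 in males. At 45 min the sexes overlapped at that peak, with 1.34 to 1.98 in females and 1.09 to 1.57 in males. At 45 min the Cpeb4 peak was also the only member without overlap, against 0.0416% of the eligible peaks.

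The acute comparisons, 45 min minus 0 min, share their 0 min libraries with the choice of the peaks and are given as a description. Averaged over both histories, 7 of the 1000 peaks were called (0.7%), 6 higher and 1 lower at 45 min, against 0.116% of all tested peaks (188 higher and 111 lower). With the gene-end share as a covariate, 22 were called, 12 higher and 10 lower, among 655 higher and 1107 lower of all peaks, so the balance of directions depended on that covariate. The largest was 7396 bp from Ttyh1, a volume-regulated chloride channel family gene. Its CPM ran from 0.95 through 1.51 to 2.69 in handled and from 0.86 through 1.26 to 2.05 in chronic mice at 0 min, and from 2.30 through 2.84 to 3.81 and from 2.01 through 2.63 to 3.13 at 45 min, so times overlapped in part in both histories. The log2 change was 0.84 ± 0.10 (SE, adjusted p = 1.54e-07, edgeR). It was the only variable peak called in handled mice (0.82 ± 0.13, adjusted p = 0.00255), against 0.0109% of all peaks, and in chronic mice (0.86 ± 0.14, adjusted p = 0.00255), against 0.00272%. These calls were lost without batch 2 (edgeR adjusted p = 0.256 in handled and 1.00 in chronic mice) and, in handled mice, without batch 3 (0.127), with changes of 0.80 to 0.86.

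The other 5 that were higher averaged over histories were farther from genes or inside a gene. A peak 66174 bp from Azin1, a regulator of polyamine synthesis, changed by 0.57 ± 0.09 and one nearest Ssr3, of the translocon, by 0.43 ± 0.08. Inside Etnppl, a phospholyase gene of astrocytes, the change was 0.54 ± 0.11, and for a peak nearest the metalloprotease gene Adamts5 it was 0.57 ± 0.12. The peak 228934 bp from Sgk1 ran from 4.15 through 4.99 to 5.48 CPM in handled and from 2.52 through 3.98 to 6.31 in chronic mice at 0 min, and from 6.20 through 7.32 to 8.20 and from 5.10 through 6.34 to 7.61 at 45 min. Handled mice did not overlap between times at that peak, chronic mice did, and the change was 0.54 ± 0.11 (adjusted p = 0.0358, edgeR). The share of all eligible peaks without overlap between times was not computed, and the 0 min libraries chose this peak, so the lack of overlap is a description only. The 1 lower peak, nearest the zinc transporter gene Slc39a10, changed by -0.53 ± 0.11 (adjusted p = 0.0228, edgeR). Each of these 6 lost its call in at least 1 alternative, and with 1 exception (Adamts5 with no batch term) these were fits with a batch left out, with no change of sign. The count of 7 was 14 without animal 45 and 2 without batch 2. No variable peak differed in its acute change between histories (0.0% of all peaks, edgeR; 56 members, 5.6%, had an unadjusted p under 0.05, against 3.03% of all peaks, and DESeq2 called 0, with 52, 5.2%, against 2.90%).

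Marker genes of cell types were searched for variable peaks. Lists of genes were compared by the eligible peaks in or within 10 kb of their genes, against the 0.671% of all eligible peaks that were in the set. Oligodendrocyte genes had 4 of 122 peaks (3.28%), at Myrf (a transcription factor of myelination), Mag, Mal and Cnp, with home-cage SDs of 0.29, 0.28, 0.28 and 0.27. These were 4 of the 14 genes of that list, and the others had none. Dentate granule neuron genes had 3 of 167 (1.80%), 2 in Pdzd2 and 1 in Prox1, the homeobox factor of granule cells. Genes of CA and subicular neurons had 2 of 343 (0.583%), both in Grik4, a kainate receptor subunit gene. Cortex genes had 2 of 74, at Tbr1 and Fezf2, endothelial and mural genes 1 of 62, at Flt1, and genes of striatum and amygdala 1 of 32, at Six3. The short lists for the following had no peak of the set: inhibitory neurons, astrocytes, oligodendrocyte precursors, microglia, choroid plexus, meninges, blood, thalamus and hypothalamus. Immediate early genes (0 of 136), glucocorticoid receptor targets (0 of 201) and circadian clock genes (0 of 225) had none either. The lists without a variable peak held 10 to 225 eligible peaks each. At a share of 0.671%, few or none would be found in a list of that size, so these zeros are not a result about the lists. The counts of 1 to 4 peaks in the other lists are small too. They were not tested and are not a result about those lists either.

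The Mag peak, shown above, ran from 1.59 through 2.13 to 3.32 CPM in handled and from 1.56 through 2.53 to 2.87 in chronic mice at 0 min, and from 1.38 through 1.97 to 2.55 and from 1.52 through 1.68 to 2.60 at 45 min, and the groups overlapped. The mean over all eligible peaks of a list varied little. Between home-cage libraries the mean level of the oligodendrocyte list moved from -0.05 to 0.04 around the batch mean (log2 CPM), that of the dentate list from -0.06 to 0.04 and that of CA and subicular neurons from -0.04 to 0.05. The widest home-cage range of any list, -0.08 to 0.07, belonged to blood cells, which had 10 eligible peaks.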

How the data were processed

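Bulk ATAC-seq of 30 libraries was analysed from 1 deposited count table, in which the authors gave fragments or reads per peak as whole-number counts for GRCm38 peaks. Per the submitters' processing notes, Trimmomatic, Bowtie2, Picard and Genrich 0.6.1 were used. How the regions were merged and counted, and whether duplicates were removed, was not given in the sources used here. A total of 2 columns matched no sample and were not used. The members and the gene lists were chosen with earlier results of these data known.

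CPM used column totals. Spread, location and co-variation were computed with Python 3.11.15, and genes came from the RefSeq table of GRCm38.p6. Co-varying groups came from average linkage on 1 minus r, cut at 0.5. Tests used edgeR 4.0.16 in R 4.3.3 (TMM scaling, filterByExpr, quasi-likelihood test, with sex and batch in the model and Benjamini-Hochberg adjustment) on 257143 peaks. History and sex were fitted on the 14 libraries at 45 min, and the acute comparisons on all 30. Named peaks were the 25 most variable (1 per gene), 6 leading each group, up to 10 called in each direction or 3 of smallest p where none was called, and those within 10 kb of a list gene. On simulated data the sex test recovered 66% of planted log2 changes of 0.5 and 100% of those of 1 over 150123 peaks, with 10 false calls. Alternatives were other pseudocounts, depth minimums, scalings, DESeq2 1.42.0, a gene-end covariate, and libraries or batches left out. Leaving out single libraries of the rule or of the 45 min set, leaving out animals 63, 8 and 7 together, leaving out animal 46 from the search for peaks that follow the Ajap1-nearest peak, and leaving out batches for history and sex were chosen after seeing the data.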

Additional observations from a re-analysis of the deposited data

Results flagged for a closer look

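For 18 named peaks, each of the 4 groups was searched for a single library far from the others. Chance alone would mark about 1 in 20 groups where the values chose nothing. The 0 min libraries chose these peaks by their spread, so that rate does not hold for the 0 min groups. Of the 72 groups searched, 9 were marked. At the peak nearest Col19a1 these were animal 63, a chronic mouse at 0 min, with 299.8 CPM, and animal 40, a handled mouse at 0 min, with 203 CPM, both above their groups. Animal 40 also had the lowest value of its group at the peak of Fndc1, a fibronectin-domain protein gene, with 0.618 CPM. Animal 63 was lowest at the Nrep-nearest peak, with 0.342 CPM, and animal 27, a handled mouse at 45 min, stood apart there with 1.27 CPM. At Snd1, animal 5, a chronic mouse at 45 min, was highest with 4.46 CPM. At the Astn2 peak, animal 23 of the same group was highest with 2.79 CPM. At the Ajap1-nearest peak, animal 39, a handled mouse at 45 min, was highest with 26.98 CPM, and at the Ext1 peak animal 1 of that group stood apart with 10.1 CPM.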

How the results depend on the processing

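Of the 1000 peaks, 416 were chosen again with a pseudocount of 2, 406 with animal 45 kept, 634 with history and sex effects removed, and 439 without animals 63, 8 and 7. With TMM-scaled CPM 909 were chosen again, and with the spread in excess of counting error also 909. A minimum mean count of 100 kept 97. That setting only removed the shallower peaks, so every variable peak at that depth was chosen again by construction. Leaving out 1 home-cage library at a time kept 683 (animal 63) to 834. The number again among the 1000 widest at 45 min, 32, became 20 with a pseudocount of 2 and 26 to 40 with 1 library at 45 min left out, and the ratio of median SD to that of the eligible peaks, 1.21, stayed within 1.06 to 1.27 over all alternatives. The median r of group 1 at 45 min stayed within 0.23 to 0.30. History (0 called) and sex (1 called) kept their counts under all 11 alternatives each. For history, 2 of all peaks were called without batch 3.

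The acute count averaged over histories, 7, became 22 with the gene-end share as a covariate, 11 with total count scaling, 14 without animal 45 and 2 without batch 2. Among all peaks, 299 became 1762, 525, 681 and 40 under these settings, and 140 without batch 3. In handled mice the count of 1 became 7 with the gene-end share, 2 without batch 4, and 0 without batch 2 or batch 3. In chronic mice it became 3 with the gene-end share, 2 with total count scaling, 3 without animal 45, 3 without batch 1, 0 without batch 2 and 2 with DESeq2. Among all peaks, the handled count of 28 ran from 0 to 393 and the chronic count of 7 from 0 to 84. No value changed sign, and the cause of each change was not tested. No paired analysis was possible because the replicate numbers are animal numbers that no 2 groups share. Most variable peaks had under 120 counts per library. Counting error came to 47.3% of the variance of the median variable peak at 45 min. In the home cage it came to 19.7%, a share that the choice of the peaks itself lowers.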
